A study of Mus musculus with 2 samples.

Results

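The genes described here are 9 enzymes and 1 receptor of N-acyl amino acid and endocannabinoid metabolism, taken by symbol from the 31053 genes counted in single nuclei of mouse entorhinal cortex. The 10 genes are Pm20d1, Faah, Napepld, Naaa, Mgll, Dagla, Daglb, Abhd6, Abhd12 and Cnr1, and all of them were in the files. They were chosen because the compound given to the mice, OLE (labelled C18:1-Leu), is an N-acyl amino acid and lies near this part of lipid metabolism, and the rule that takes them by symbol uses no measured value, although earlier results of these data were known. The study asked how OLE changes the brain of APP/PS1 mice, a transgenic line that deposits amyloid. Both libraries came from male APP/PS1 mice treated from 15 to 18 months of age, 1 with OLE at 25 mg/kg/day and 1 with the DMSO vehicle, each in alkaline drinking water. Each library pooled the entorhinal cortex of 5 mice, and no wild-type library was analysed, so neither the spread between mice nor the effect of the transgenes can be read from these data. Since each condition is a single library, nothing was tested between them, and all intervals below are 95% intervals for counting error only.

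N-acyl amino acids such as OLE are a fatty acid joined to an amino acid, and the secreted enzyme PM20D1 makes and splits them. Endocannabinoids are lipid messengers that neurons release from the postsynaptic side and that act on the presynaptic receptor CB1, the product of Cnr1. The N-acylethanolamines, among them anandamide, are made by NAPE-PLD and split by FAAH and, in the lysosome, by NAAA, while 2-arachidonoylglycerol (2-AG) is made by the diacylglycerol lipases (Dagla, Daglb) and split by monoacylglycerol lipase (Mgll), ABHD6 and ABHD12.

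The vehicle library held 6745 nuclei and 70845739 UMIs (unique molecular identifiers, which mark captured RNA molecules), and the OLE library 6173 nuclei and 69485537 UMIs. After removal of likely doublets, 23 clusters were found, of which 19 were given to 8 classes by marker genes and 4 stayed unnamed, among them a large one (cluster 0) led by Spag5, Hbb-bs and Tmsb4x. Cluster 0 held 2469 vehicle nuclei with a median of 2362 UMIs and 2034 OLE nuclei with a median of 4733 UMIs. It took 9.91% of the UMIs of the vehicle library and 15.4% of those of the OLE library. Of the glutamatergic markers it raised 14 of 15 without leading with any. It also raised 92.3% of the markers of another class, so its markers point to no single class. The 10 genes that lead cluster 0 summed to 257 of each 1000000 UMIs in vehicle and 380 in OLE glutamatergic-like nuclei, and they were also higher in the OLE library in each of the other 6 classes compared here, as set beside the results they touch. Levels are given in CPM, the UMIs of a gene in each 1000000 UMIs of its class and library, and a class name with "like" means that marker genes point to that type.

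The 10 genes lie on 7 chromosomes of the GRCm38 build (GENCODE vM21): Pm20d1 at chr1:131797381-131821473, Faah at chr4:115967145-116017926 and Cnr1 at chr4:33924593-33948831, Napepld at chr5:21662901-21701396, Naaa at chr5:92257659-92278170 and Daglb at chr5:143464584-143505942, Mgll at chr6:88724412-88828360, Dagla at chr19:10245265-10304877, Abhd6 at chr14:8002902-8056763 and Abhd12 at chr2:150832493-150904741. Introns were counted, and the genes span from 20.5 kb (Naaa) to 104 kb (Mgll), so levels of different members are compared below per kilobase of gene span. Whether UMIs scale with span was not tested, and the undivided order is given where it differed. Daglb shares 2309 bases with Rac1 and Mgll shares 1449 bases with the antisense gene Gm26588, in both cases on the opposite strand, and counting by Cell Ranger uses the strand.

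Pm20d1, the enzyme that makes and splits N-acyl amino acids, was close to the limit of detection. Only 59 of its UMIs were found in the 12298 retained nuclei, 25 in the vehicle and 34 in the OLE library. Of these, 35.6% were in astrocyte-like nuclei and 23.7% in vascular leptomeningeal-like nuclei, classes that held 1.26% and 1.05% of all UMIs, and 27.1% were in unnamed cluster 0, which held 12.6%. The astrocyte-like level was 7.71 CPM in the vehicle library (6 UMIs, interval 2.83 to 16.8) and 17.2 CPM in the OLE library (15 UMIs, interval 9.61 to 28.3). In leptomeningeal-like nuclei the order was the other way, with 13.5 CPM (9 UMIs) in vehicle and 7.08 CPM (5 UMIs) in OLE. The intervals of the libraries overlap in both classes. Glutamatergic-like nuclei held 2 UMIs in the vehicle library and 0 of 39635269 UMIs in the OLE library, which allows up to 0.0757 CPM. In microglia-like nuclei no UMI of Pm20d1 was found in either library, which allows up to 3.41 CPM in vehicle and 4.17 CPM in OLE. Per kilobase, its astrocyte-like level was 0.528 CPM, against 5.48 for Mgll in the same nuclei. No ratio between conditions is called for Pm20d1, since no class reached 100 UMIs.

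Faah, the main hydrolase of anandamide and other fatty acid amides, was highest in glutamatergic-like nuclei. Glutamatergic-like nuclei held 72.4% of its UMIs, at 89.4 CPM in vehicle and 94.9 CPM in OLE. GABAergic-like nuclei were 2.25-fold lower with both libraries summed, at 40.5 and 41.5 CPM, and the intervals of these classes did not overlap. Oligodendrocyte-like nuclei had 39.2 CPM in vehicle and 32.7 in OLE, with intervals that overlapped those of GABAergic-like nuclei. After thinning each nucleus to 1000 UMIs, 7.88% of vehicle and 9.03% of OLE glutamatergic-like nuclei held a Faah UMI, against 1.65% and 0.735% of astrocyte-like nuclei, the class with the lowest level over both libraries summed, and 1.15% and 1.16% of leptomeningeal-like nuclei. Without thinning the glutamatergic-like and astrocyte-like shares were 78.7% and 79.4% against 5.79% and 6.62%, at median depths of 20804 and 19267.5 UMIs against 5866 and 5740. Astrocyte-like nuclei held 7 Faah UMIs in vehicle and 9 in OLE, and the microglia-like level was 18.2 and 16.7 CPM. Among the 11 glutamatergic-like clusters Faah spanned 2.06-fold, from 59.7 CPM in the cluster led by Cobll1 and Thsd7b to 123 CPM in the cluster led by Cdc14a and Wfs1. The highest cluster was the same in both libraries.

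Napepld, which makes N-acylethanolamines from their phospholipid precursors, had a glial side. Its highest level was in oligodendrocyte-like nuclei, at 29.0 CPM in vehicle (63 UMIs) and 38.3 in OLE (68 UMIs), followed by leptomeningeal-like nuclei at 18.0 and 24.1 CPM, and these classes had overlapping intervals. Glutamatergic-like nuclei came next in both libraries, at 15.9 CPM in vehicle and 14.7 in OLE, and held 63.3% of all Napepld UMIs, close to their 62.9% of the UMIs of all genes. Astrocyte-like nuclei were lowest over both libraries summed, with 5 and 3 UMIs, while in the OLE library alone oligodendrocyte precursor-like nuclei were lower (2 UMIs, 3.13 CPM against 3.43). Across glutamatergic-like clusters the level ran from 7.02 CPM in the Cobll1 cluster to 22.9 in the cluster led by Gm48530 and Ccbe1. Napepld and Faah, which make and split the same lipids, were both lowest in the Cobll1 cluster, and over the 22 clusters of at least 50 nuclei their Pearson r was 0.18.

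Naaa, the lysosomal acid amidase, was highest outside the neuronal classes. Leptomeningeal-like nuclei had 69.1 CPM in vehicle and 73.7 in OLE, and astrocyte-like nuclei 54.0 and 73.2, with overlapping intervals. Of the named classes microglia-like nuclei came next, 3.8-fold below astrocyte-like nuclei with both libraries summed, at 13.6 CPM (12 UMIs) and 20.9 CPM (15 UMIs). That was not above unnamed cluster 0, which had 19.9 CPM in vehicle and 21.1 in OLE. Cluster 0 held 25.5% of all Naaa UMIs, beside 12.6% of the UMIs of all genes. Glutamatergic-like nuclei had 6.00 and 6.18 CPM. Oligodendrocyte precursor-like nuclei held no Naaa UMI in either library, which allows up to 3.90 CPM in vehicle and 4.70 in OLE. A UMI was found in 27.3% of vehicle and 36.0% of OLE astrocyte-like nuclei, and after thinning to 1000 UMIs in 6.61% and 7.35%. Over the clusters, Naaa was the member least like Faah (Pearson r -0.64, as a description over 22 clusters that come from the same 2 libraries). Both enzymes split N-acylethanolamines, and with both libraries summed the 2 highest classes for Naaa were the 2 lowest for Faah.

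**Figure D1:**
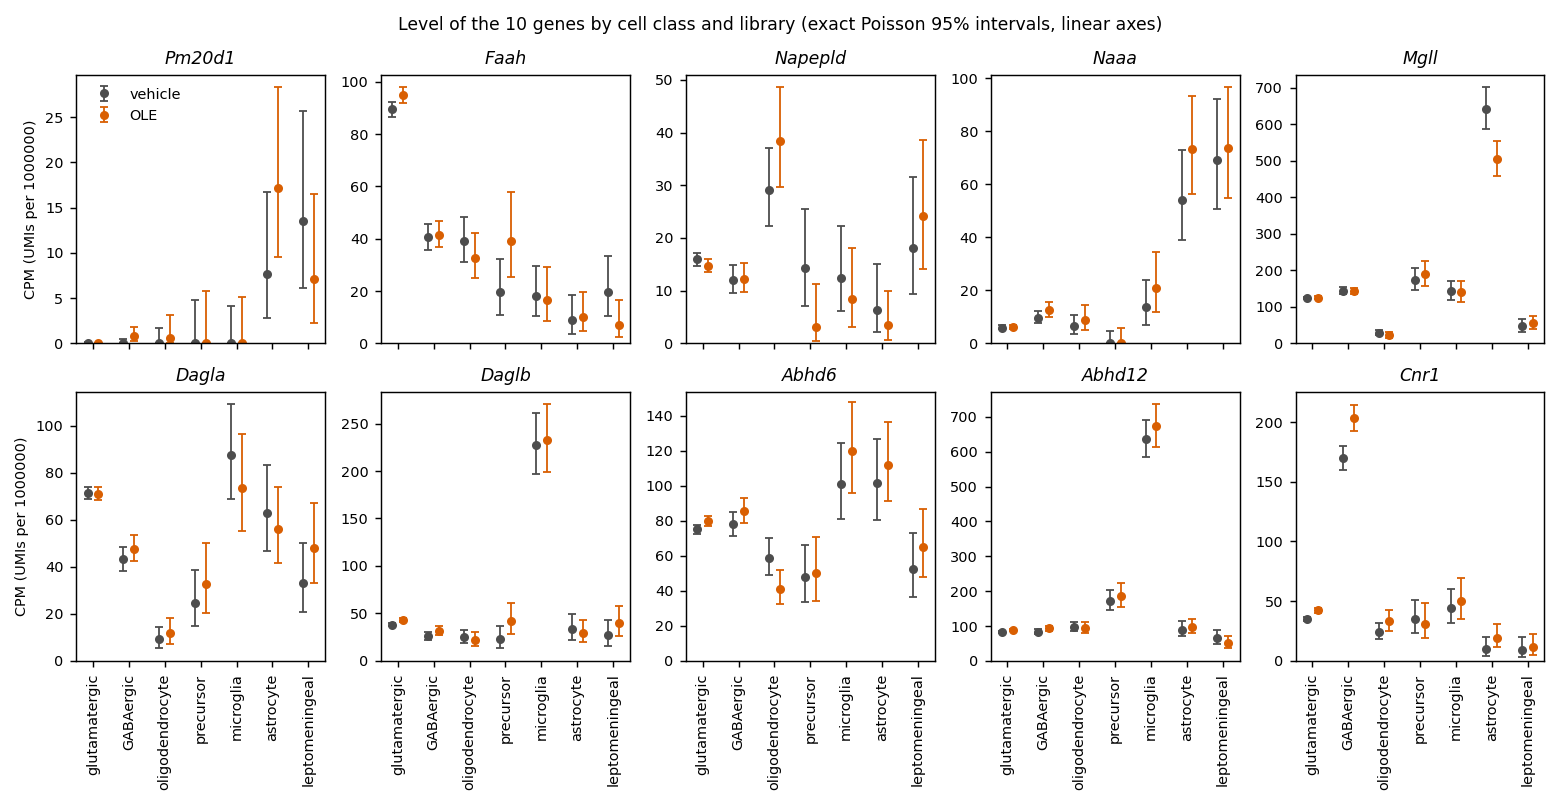
Level of each of the 10 genes (CPM, linear axes that differ between panels) in 7 cell classes of the vehicle library (grey) and the OLE library (orange), points with exact Poisson 95% intervals. Mgll stands highest in astrocyte-like nuclei (643 and 505 CPM), Abhd12 and Daglb in microglia-like nuclei, Cnr1 in GABAergic-like nuclei, and the order of these leading classes is the same in both libraries.

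Both lipases that make 2-AG were highest in microglia-like nuclei, with a lead beyond counting error only for Daglb. Dagla, the form that supplies 2-AG at synapses in the adult brain, was measured at 71.3 CPM in vehicle and 71.2 in OLE glutamatergic-like nuclei, which held 72.1% of its UMIs. Microglia-like nuclei had 87.4 and 73.7 CPM, and their intervals overlapped those of glutamatergic-like nuclei. Oligodendrocyte-like nuclei were lowest, at 9.22 and 11.8 CPM. Daglb, the form known for its role in macrophages and microglia, stood 5.68-fold higher in microglia-like nuclei than in the next class, with 227 CPM in vehicle (200 UMIs) and 232 in OLE (167 UMIs). The other 6 classes lay between 24.1 and 40.4 CPM with both libraries summed. A Daglb UMI was found in 22.0% of vehicle and 21.6% of OLE microglia-like nuclei thinned to 1000 UMIs, against 3.08% and 1.52% of oligodendrocyte-like nuclei. Unthinned, the microglia-like shares were 42.3% and 44.1% at median depths of 2444.5 and 2348 UMIs. Per kilobase, microglia-like nuclei had 5.55 CPM of Daglb and 1.36 of Dagla, while in glutamatergic-like nuclei the values were 0.977 and 1.20.

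Of the enzymes that split 2-AG, Mgll and Abhd12 were highest in different glial classes. Mgll, which ends most 2-AG signalling in brain tissue, was highest in astrocyte-like nuclei, 3.15-fold above the next class, at 643 CPM in vehicle (500 UMIs, interval 588 to 702) and 505 in OLE (441 UMIs, interval 459 to 554). Oligodendrocyte precursor-like nuclei followed at 174 and 189 CPM, then GABAergic-like nuclei at 145 and 143 and microglia-like nuclei at 143 and 141, and the order of the 7 classes was the same in both libraries. Oligodendrocyte-like nuclei were last, at 29.0 and 22.5 CPM. At 1000 UMIs per nucleus, 45.5% of vehicle and 41.9% of OLE astrocyte-like nuclei held an Mgll UMI, against 2.74% and 2.65% of oligodendrocyte-like nuclei. Unthinned, the shares were 91.7% and 89.7% against 8.72% and 6.06%.

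Abhd12, a hydrolase known to split lysophosphatidylserine as well as 2-AG, was highest in microglia-like nuclei at 636 CPM in vehicle (560 UMIs) and 673 in OLE (484 UMIs). That was 3.65-fold above oligodendrocyte precursor-like nuclei (173 and 186 CPM), the next class. The other 5 classes lay between 59.1 and 97.1 CPM with both libraries summed. After thinning, 38.6% of vehicle and 44.8% of OLE microglia-like nuclei held an Abhd12 UMI, against 6.90% and 3.49% of leptomeningeal-like nuclei, the lowest class. Abhd6, which splits 2-AG on the inner side of the membrane, was the most even of the 3, with 101 and 120 CPM in microglia-like, 102 and 112 in astrocyte-like, 77.9 and 85.5 in GABAergic-like and 75.2 and 79.9 in glutamatergic-like nuclei. It was lowest in oligodendrocyte precursor-like nuclei in vehicle (48.1 CPM, and 50.1 in OLE) and in oligodendrocyte-like nuclei in OLE (41.1 CPM). Per kilobase, the breakdown enzyme with the highest level was Abhd12 in microglia-like nuclei (9.03 CPM), Mgll in astrocyte-like nuclei (5.48) and Abhd6 in glutamatergic-like nuclei (1.44, with Mgll and Abhd12 both at 1.20). The lead of Abhd6 depends on the division by span. Undivided, the glutamatergic-like levels with both libraries summed were 124 CPM for Mgll, 86.3 for Abhd12 and 77.5 for Abhd6.

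Cnr1, the CB1 receptor gene, was highest in 1 of the 2 GABAergic-like clusters. In the class as a whole it stood at 170 CPM in vehicle and 203 in OLE, 3.97-fold above the next class with both libraries summed. The cluster led by Adarb2 and Vip carried most of it, with 472 CPM in vehicle (991 UMIs in 110 nuclei) and 503 in OLE (1096 UMIs in 128 nuclei), while the cluster led by Kcnmb2 and Nxph1, which also led with Sst, had 37.4 and 50.7 CPM. Within the Adarb2 cluster the UMIs were unevenly spread. The median nucleus held 4.5 UMIs in vehicle and 4 in OLE, the highest 96 and 68, and 19.1% and 12.5% of nuclei held none, so that the 10% of nuclei with most Cnr1 held 48.7% and 49.7% of its UMIs there. The following splits of both clusters were chosen after values were seen. In the Adarb2 cluster, nuclei with a Vip UMI had 438 CPM of Cnr1 in vehicle and 645 in OLE, and those without had 493 and 403, so the order of these groups was opposite in the libraries. In the other cluster, nuclei with an Sst UMI had 59.8 and 71.1 CPM, above nuclei without one in both libraries (11.3 and 25.2 CPM).

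Glutamatergic-like nuclei had 35.2 CPM of Cnr1 in vehicle and 42.3 in OLE, with an 8.51-fold span over their 11 clusters, the widest of the 9 genes with a value in every glutamatergic-like cluster. The cluster led by Il1rapl2 and Hs3st2 was highest with both libraries summed (77.3 CPM) and the one led by Rnf152 and Htr2c lowest (9.08). The order of the clusters was similar in the libraries (Spearman rho 0.88 over 11 clusters, a description). Mgll had the next widest span, 5.57-fold, from 34.3 CPM in the cluster led by Dach1 and Ndst4 to 191 in the cluster led by Rorb and Kcnh5. The Dach1 cluster was therefore lowest for Mgll and, at 63.6 CPM, second for Cnr1. It was not lowest for Abhd6 or Abhd12, which also split 2-AG and were lowest in the Rnf152 cluster. Its median nucleus held 0 Mgll UMIs and 2 Abhd12 UMIs in each library, and 1.5 (vehicle) and 2 (OLE) Abhd6 UMIs. Abhd6 spanned 2.44-fold with a similar order of clusters in the libraries (Spearman rho 0.97), Dagla 1.74-fold and Abhd12 1.53-fold.

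**Figure D2:**
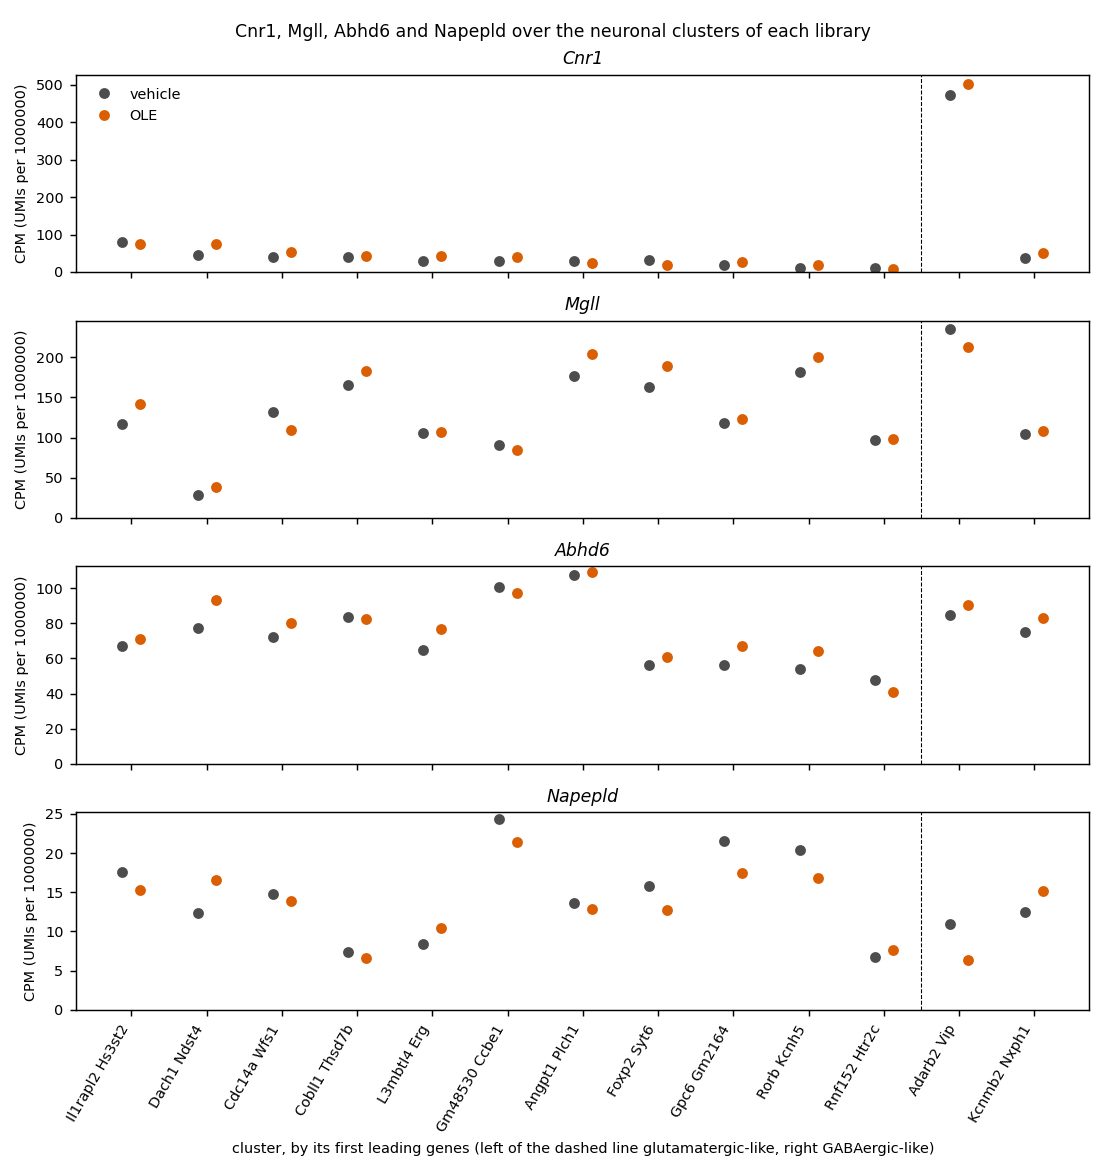
Level (CPM, linear axes) of Cnr1, Mgll, Abhd6 and Napepld in the 11 glutamatergic-like clusters, ordered by Cnr1, and the 2 GABAergic-like clusters, vehicle in grey and OLE in orange. Cnr1 stands at 472 and 503 CPM in the Adarb2 cluster and under 100 in every other cluster shown, and Mgll is lowest in the Dach1 cluster in both libraries.

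Part of the low glial levels lies at what neuronal RNA outside its own nuclei would give. For 16 neuronal genes, among them Snap25, Syt1 and Grin2b, the summed level in each glial or leptomeningeal-like class was divided by the summed level in neurons, and this share was 16.1% (leptomeningeal-like, OLE) to 31.8% (microglia-like, vehicle). Single genes varied widely, in OLE microglia-like nuclei from 15.6% (Rbfox3) to 105% (Nrgn). In OLE oligodendrocyte precursor-like nuclei they ran from 4.92% (Rbfox3) to 170% (Gad1). The ratios below therefore depend on the genes listed, and whether the glial nuclei themselves express some of these genes was not tested. Faah was below the level such a share would give in astrocyte-like nuclei (0.63 of it in vehicle and 0.72 in OLE) and microglia-like nuclei (0.69 and 0.62), as was Dagla in oligodendrocyte-like nuclei (0.65 and 0.91), and Mgll in oligodendrocyte-like nuclei was close to it (1.10 and 0.92). No expression of these genes in these classes is read from such values, and the source of the UMIs was not tested. Abhd12 and Daglb in microglia-like nuclei were 24.0 and 19.6 times that level in vehicle and 24.1 and 18.2 times in OLE, Mgll in astrocyte-like nuclei 29.3 and 24.2 times, and Naaa in astrocyte-like nuclei 47.7 and 63.3 times. Napepld in oligodendrocyte-like nuclei was 9.01 and 13.96 times that level. Faah in oligodendrocyte-like nuclei was 2.27 and 1.95 times it, and Dagla in microglia-like nuclei 4.07 and 3.52 times. With the median share over the 16 genes, chosen after seeing the data, Mgll in oligodendrocyte-like nuclei was at 0.85 and 0.67. Cnr1 was, with the summed share, between 0.91 and 2.77 times that level in the 5 classes, and in every one of them below its level in cluster 0, which was 110 CPM in vehicle and 116 in OLE. Cnr1 in cluster 0 was thus above its level in glutamatergic-like nuclei, and no expression of Cnr1 in glia is read from these values. Naaa was also higher in cluster 0 (19.9 CPM in vehicle and 21.1 in OLE) than in neurons (6.52 and 7.09 CPM). The multiples of Naaa rest on the lower, neuronal level. Its astrocyte-like level, 54.0 and 73.2 CPM, was above that of cluster 0 in both libraries.

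**Figure D3:**
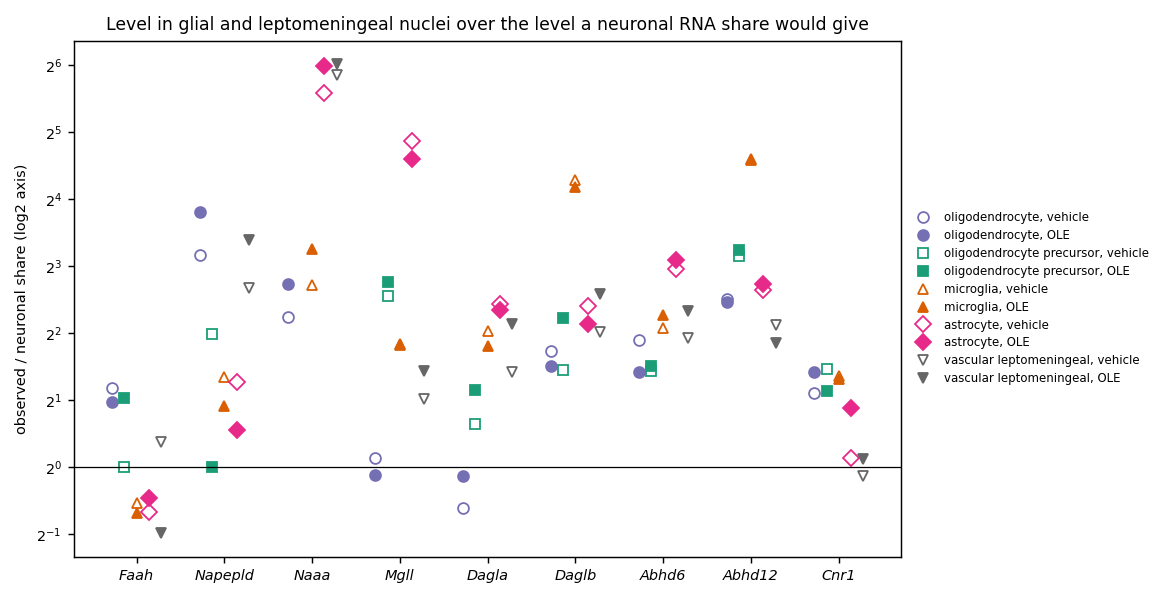
Level of 9 genes in 5 glial and leptomeningeal-like classes divided by the level that the class's summed share of 16 neuronal genes would give (log2 axis), open symbols vehicle and filled symbols OLE, with no symbol where a gene had 0 UMIs. Faah lies below 1 in astrocyte-like and microglia-like nuclei, Naaa, Mgll, Daglb and Abhd12 each have a class far above 1, in both libraries.

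Ratios between the libraries are given for members with enough UMIs, which left out Pm20d1 in every class. In the text that follows a gene counts as past the fold when its class held 100 or more of its UMIs, libraries summed, and its levels differed at least 1.5-fold. None of the members that reached 100 UMIs was past the fold in any of the 6 classes compared, which are the named classes where a member reached 100 UMIs. In glutamatergic-like nuclei these were 0 higher and 0 lower of 9 members, where 3.82% of 14040 genes were at least 1.5-fold higher in OLE and 0.185% lower. In GABAergic-like nuclei they were 0 and 0 of 9 members, beside 5.29% higher and 0.311% lower of 9635 genes. The counts were 0 and 0 of 6 members in oligodendrocyte-like nuclei (2.99% higher and 0.806% lower of 5828 genes), of 2 members in oligodendrocyte precursor-like nuclei (2.71% and 2.13% of 2584 genes), of 5 members in microglia-like nuclei (2.07% and 1.33% of 3676 genes) and of 4 members in astrocyte-like nuclei (2.42% and 2.03% of 3012 genes). With backgrounds this low, counts of 0 among so few genes are near what all genes show and are no result about the members. The members' median log2(OLE/vehicle) among glutamatergic-like nuclei was 0.09, beside 0.07 over all genes with 100 UMIs, and among GABAergic-like nuclei 0.15 beside 0.08. It was -0.16 beside 0.02 in oligodendrocyte-like, 0.12 beside -0.02 in oligodendrocyte precursor-like, 0.03 beside -0.02 in microglia-like and 0.14 beside -0.02 in astrocyte-like nuclei.

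**Figure D4:**
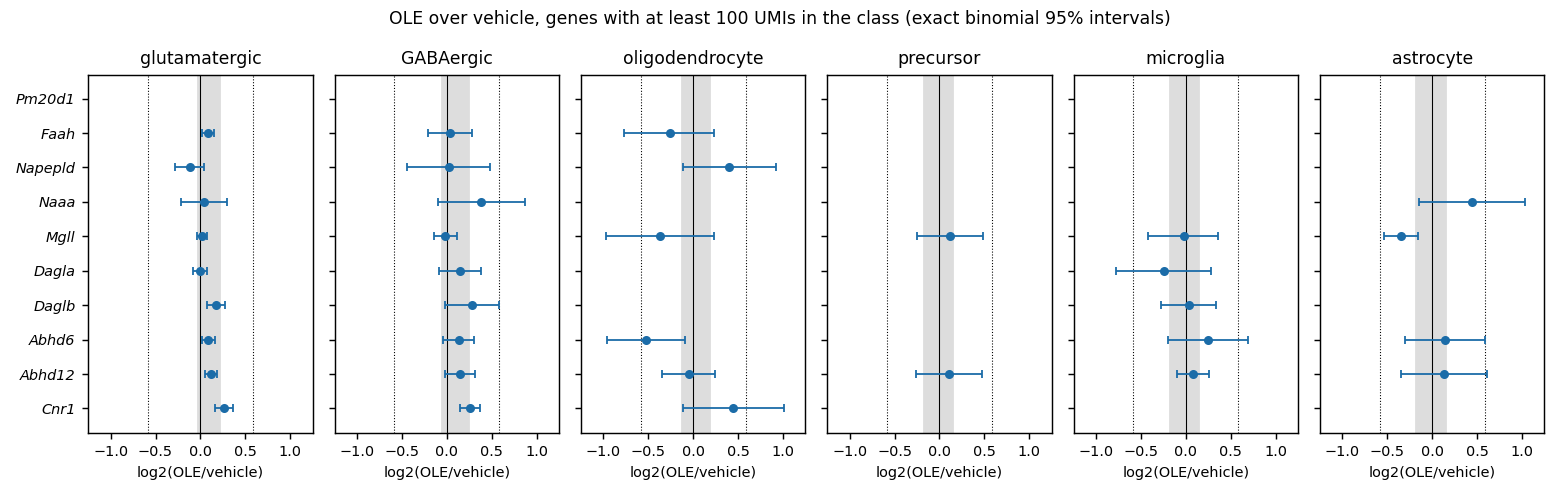
log2(OLE/vehicle) of each member with at least 100 UMIs in 6 classes, with exact binomial 95% intervals for counting error. Grey bands hold the middle 50% of all genes with 100 UMIs in the class and dotted lines mark 1.5-fold. No point lies outside the dotted lines, and Cnr1 is the highest member in glutamatergic-like nuclei (0.27).

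Of the members in the 6 named classes, Cnr1, Mgll and Abhd6 had the largest differences whose interval left out 0. Among the unnamed clusters, Faah in cluster 20 had 70 UMIs in vehicle and 105 in OLE (1.51-fold, log2 0.60, interval 0.15 to 1.06), and Mgll in cluster 21 had 208 and 146 UMIs (log2 0.46, interval 0.14 to 0.77). Cnr1 was the highest of the members in glutamatergic-like nuclei, with 1503 UMIs in vehicle and 1678 in OLE (log2 0.27, interval 0.16 to 0.37), and in GABAergic-like nuclei it had 1170 UMIs in vehicle and 1313 in OLE (log2 0.26, interval 0.15 to 0.37). Both values depend on the clusters within the class, as the following values, chosen after the levels were seen, show. Without the glutamatergic-like cluster led by Dach1 and Ndst4, which held 132 vehicle and 238 OLE nuclei and where Cnr1 stood at 45.2 and 74.5 CPM, the value was 0.10 (interval -0.01 to 0.22). Cnr1 was higher in OLE in 7 of the 11 glutamatergic-like clusters, and lower, for example, in the one led by Foxp2 and Syt6 (32.0 against 20.0 CPM). In the Adarb2 cluster alone the log2 value was 0.09 (interval -0.03 to 0.22) and in the Kcnmb2 cluster 0.44 (0.15 to 0.73). When each cluster was given the same share of UMIs in both libraries, the glutamatergic-like value was 0.22 and the GABAergic-like value 0.15. The 10 leading genes of cluster 0, where Cnr1 is high, differed by log2 0.57 and 0.69 in the same classes, and the summed level of the 15 GABAergic markers in glutamatergic-like nuclei was 211 CPM in vehicle and 327 in OLE. Their part in the Cnr1 difference was not tested.

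Mgll in astrocyte-like nuclei was the lower value whose interval lay furthest from 0, with 500 UMIs in 121 vehicle nuclei and 441 in 136 OLE nuclei (log2 -0.35, interval -0.54 to -0.16). With likely doublets kept it was -0.56. The median nucleus held 3 Mgll UMIs in both libraries, and the highest 24 in vehicle and 11 in OLE. The thinned shares of nuclei overlapped, at 45.5% (36.4 to 54.8) in vehicle and 41.9% (33.5 to 50.7) in OLE. In the other classes the interval of Mgll held 0, at 0.02 (interval -0.04 to 0.08) in glutamatergic-like, -0.01 (-0.15 to 0.12) in GABAergic-like, -0.36 (-0.97 to 0.23) in oligodendrocyte-like, 0.12 (-0.25 to 0.49) in oligodendrocyte precursor-like and -0.03 (-0.42 to 0.36) in microglia-like nuclei. Abhd6 in oligodendrocyte-like nuclei had 128 UMIs in vehicle and 73 in OLE, 59.0 against 41.1 CPM (log2 -0.52, interval -0.95 to -0.09), a level 3.73 times (vehicle) and 2.66 times (OLE) what the neuronal share would give. In glutamatergic-like nuclei Abhd6 was slightly higher in OLE, at 75.2 and 79.9 CPM (log2 0.09, interval 0.02 to 0.16). That value lay within the middle range of all genes there (-0.03 to 0.22, median 0.07). The leading genes of cluster 0 differed by log2 0.28 in astrocyte-like and 0.40 in oligodendrocyte-like nuclei, and their part in these values was not tested.

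Some of the remaining members differed as much in smaller classes, with intervals that held 0. Naaa was at log2 0.44 (-0.14 to 1.04) in astrocyte-like and 0.38 (-0.10 to 0.87) in GABAergic-like nuclei. Napepld was at 0.40 (-0.12 to 0.92) in oligodendrocyte-like and Daglb at 0.28 (-0.01 to 0.58) in GABAergic-like nuclei. Lower in OLE were, for example, Faah in oligodendrocyte-like (-0.26, -0.77 to 0.24) and Dagla in microglia-like nuclei (-0.25, -0.78 to 0.28). In glutamatergic-like nuclei, where counting error is smallest, Faah was at log2 0.09 (0.02 to 0.15), Abhd12 at 0.12 (0.05 to 0.18), Daglb at 0.17 (0.07 to 0.27), Naaa at 0.04 (-0.22 to 0.30) and Napepld at -0.12 (-0.28 to 0.04), while all genes there had a median of 0.07 and a middle range of -0.03 to 0.22. The values of Faah, Abhd12 and Daglb left out 0 by counting error and lay within that middle range. Dagla was at -0.00 (-0.08 to 0.07). In microglia-like nuclei, the class with the highest Abhd12 and Daglb, these stood at 0.08 (-0.10 to 0.26) and 0.03 (-0.27 to 0.34). These intervals still include changes of about the size that Cnr1 had in neurons.

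Other genes of the same pathways were taken from 5 lists. Of 17 genes linked to N-acyl amino acids, 10 reached 100 UMIs in glutamatergic-like nuclei and 1 was past the fold, higher (beside 3.82% of all genes), in GABAergic-like nuclei 2 of 4 were, both higher (beside 5.29%), and none was in the other 4 classes in which members were compared. In leptomeningeal-like nuclei, where no member reached 100 UMIs, 1 of 2 was past the fold, higher, beside 8.35% of 2946 genes higher and 3.97% lower. These were Slc25a5 (glutamatergic-like log2 0.65, interval 0.39 to 0.90, and GABAergic-like 0.78, interval 0.23 to 1.34) and Slc25a4 (GABAergic-like 0.80, interval 0.59 to 1.00, and leptomeningeal-like 0.68, interval 0.22 to 1.15), the ADP/ATP carriers of the mitochondrial inner membrane, through which N-acyl amino acids are known to uncouple respiration. Slc25a4 stood at 46.1 CPM in vehicle and 80.2 in OLE GABAergic-like nuclei. Both genes are more abundant in cluster 0, 8.71-fold for Slc25a5 over glutamatergic-like nuclei 3.26-fold for Slc25a4 over GABAergic-like and 1.65-fold over leptomeningeal-like nuclei, and the part of cluster 0 RNA in their difference was not tested. Aspa, which splits N-acetylaspartate, had the second most UMIs of the list, a count that is not corrected for gene length, and stood at 782 CPM in oligodendrocyte-like nuclei.

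Of 9 genes of other routes to N-acylethanolamines, Gdpd1, Gde1 and Pla2g4e had most UMIs. In GABAergic-like nuclei 1 of 4 was past the fold, Gde1, higher beside 5.29% of all genes (31.8 CPM in vehicle and 55.1 in OLE, log2 0.79, interval 0.55 to 1.04), and none was in the other classes. Its level in cluster 0 was 2.64-fold that of GABAergic-like nuclei. Of 10 genes that supply diacylglycerol, the substrate of Dagla and Daglb, Grm5, Plcb1 and Chrm3 had most UMIs. Past the fold were Chrm1, a muscarinic receptor, in GABAergic-like nuclei (1 of 7, higher, log2 0.62, interval 0.30 to 0.95, beside 5.29% of all genes) and Chrm3 in oligodendrocyte precursor-like nuclei (1 of 4, lower, log2 -0.79, interval -1.28 to -0.32, beside 2.13% of all genes). Chrm1 was 2.35-fold more abundant in cluster 0 than in GABAergic-like nuclei and Chrm3 5.41-fold more than in oligodendrocyte precursor-like nuclei, and the part of cluster 0 RNA was not tested.

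Of 10 other receptors of these lipids and their partners, Cnrip1, which encodes a protein that binds CB1, had most UMIs, followed by Pparg and Ppard. In astrocyte-like nuclei 1 of 2 with 100 UMIs was past the fold, Cnrip1, which was lower in OLE (65 UMIs in vehicle and 40 in OLE, log2 -0.87, interval -1.47 to -0.28, beside 2.03% of all genes lower). Its level in cluster 0 was 1.65-fold that of astrocyte-like nuclei. Ppara, a nuclear receptor for N-acylethanolamines, was at 110 CPM in astrocyte-like and 88.2 in leptomeningeal-like nuclei, the classes with the highest Naaa, and under 3 CPM in neurons, oligodendrocyte-like and microglia-like nuclei. In leptomeningeal-like nuclei it was the 1 gene of the list with 100 UMIs and was past the fold, lower (71 UMIs in vehicle and 50 in OLE, log2 -0.59, interval -1.14 to -0.05, beside 3.97% of all genes). Cnr2, the second cannabinoid receptor, was named after its values were seen, with 70 UMIs in all and a level of 26.9 CPM in microglia-like nuclei. Of 12 lipid carriers and further lipases, Ddhd2, Abhd16a and Lipe had most UMIs, and past the fold were Fabp3 in glutamatergic-like (1 of 7, log2 0.60), Fabp5 in GABAergic-like (1 of 6, 0.98), Lipe in oligodendrocyte-like (1 of 4, 0.73) and Ddhd2 in oligodendrocyte precursor-like nuclei (1 of 1, -0.65). The shares of all genes past the fold in these directions were 3.82%, 5.29%, 2.99% and 2.13%. Fabp3 and Fabp5, carriers of fatty acids and endocannabinoids, were 3.01-fold and 4.54-fold more abundant in cluster 0 than in these classes, while Lipe was 0.241 of its oligodendrocyte-like level there.

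The genes whose levels over the 22 clusters were most like a member's, by Pearson r of log2(CPM + 10) over 12097 genes, are named here. For Abhd12 they were Fam102b (0.95), Vsir (0.93) and Fermt3 (0.93), and for Daglb Blnk (0.90), Fam105a (0.89) and Pik3r6 (0.89), genes of microglia or other immune cells among them. Abhd12 and Daglb were the most alike pair of members (0.77). For Naaa they included Gja1 (0.93), an astrocyte gap junction gene, and Id3 (0.92), for Faah Add2 (0.95), Nphp4 (0.94) and Cnksr2 (0.94), and for Cnr1 Yjefn3 (0.81), Pcdh8 (0.81) and Vip (0.80). Mgll was matched less closely, by Gm47423 (0.78), Chst10 (0.74) and Slc1a4 (0.72). For Napepld they were Kmt5a (0.87), Map4k5 (0.77) and Atg4c (0.73), for Dagla Mettl17 (0.82), Spred2 (0.82) and Iqce (0.81), and those for Abhd6 included Tsga10 (0.75) and Coq8b (0.71). The clusters share 2 libraries and differ in depth, so these values are descriptions.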

How the data were processed

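Nuclei from frozen entorhinal cortex were sequenced with 10x 3′ v3 chemistry. The authors aligned reads to the mm10 pre-mRNA reference, with introns counted, and deposited raw UMI counts per gene and nucleus. The Cell Ranger version is 3.0.1 in the methods and the submitters' processing notes and 3.0.2 in the matrix header. The methods name Seurat 4.0.4 for quality control and doublet removal. Median depth was 3989 UMIs per nucleus in vehicle and 6392 in OLE, and 14 barcodes occur in both libraries.

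Doublets were scored with Scrublet (scanpy 1.11.5). Its automatic threshold marked 0.104% and 0.130% of nuclei, so the top 5% of scores were removed, 331 vehicle and 289 OLE nuclei. Clusters came from SCTransform (Seurat 5.3.0, sctransform 0.4.2, R 4.3.3), 3000 variable genes, 30 components, 20 exact neighbours and resolution 0.4, without integration. Mgll, Abhd12 and Cnr1 were variable genes, so differences between clusters are descriptions.

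A marker was raised at 4 times its 10th percentile over clusters and in 10% of nuclei, and a name needed 3 raised markers. Clusters without an own marker among their top 10 genes stayed unnamed where 50% of another class's markers were raised, depth was low or another class's marker led. The rule was settled after clusters were seen, with 3 combinations of neighbour search and percentile tried. No cluster was endothelial-like. Of the 7 classes, leptomeningeal-like nuclei had the highest summed endothelial markers, 509 CPM in vehicle and 642 in OLE. Their own markers summed to 6269 and 5152 CPM, and 7.30% and 6.61% of their UMIs were mitochondrial. Whether this class holds endothelial nuclei was not tested. The 27 mural-like nuclei were left out.

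UMIs were summed per class and library. Sums have exact Poisson, shares Clopper-Pearson and ratios exact binomial 95% intervals. The intervals of sums and ratios were run on simulated Poisson counts, the model they assume, which checks the calculation only. Spread between nuclei or mice was not simulated, and the intervals of shares were not checked this way. Where a count is 0, the limit is 3 UMIs of the total. Thinning to 1000 UMIs left out shallower nuclei. The text names every member in the classes, the 3 most abundant genes of each pathway list and those past the fold, and the 3 genes most like each member with 500 UMIs, of which 2 are not reported here. Members, lists and rules were chosen with earlier results of these data known. Python 3.11.15, numpy 2.4.6, scipy 1.17.1, pandas 2.3.3 and matplotlib 3.10.9 were used.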

Additional observations from a re-analysis of the deposited data

Results flagged for a closer look

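Abhd6 had opposite signs in 2 classes, each with an interval that left out 0: its log2(OLE/vehicle) was 0.087 in glutamatergic-like nuclei (3210 UMIs in vehicle and 3167 in OLE) and -0.52 in oligodendrocyte-like nuclei (128 and 73 UMIs). The glutamatergic-like value lay within the middle range of all genes in that class (-0.03 to 0.22, median 0.07). It is therefore not read as an increase particular to Abhd6. The oligodendrocyte-like value lay below the middle range of all genes in its class (-0.13 to 0.18, median 0.02). The difference between the classes was not tested, since each condition has 1 library.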

How the results depend on the processing

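Leaving out the setting that thins every nucleus to 1000 UMIs, the members' median log2(OLE/vehicle) stayed between 0.02 and 0.09 in glutamatergic-like, 0.06 and 0.15 in GABAergic-like, -0.17 and -0.02 in oligodendrocyte-like, 0.10 and 0.19 in oligodendrocyte precursor-like, 0.02 and 0.11 in microglia-like and 0.01 and 0.16 in astrocyte-like nuclei. Thinned, the oligodendrocyte precursor-like median of 2 members was 1.15, from 7 and 19 UMIs of Mgll and 16 and 20 of Abhd12. Thinning also turned the sign of the oligodendrocyte-like median, from -0.16 to 0.14, and of the astrocyte-like median, from 0.14 to -0.01. Thinning moved 15 of 35 single log2 ratios and 33 of 70 levels outside their intervals, the mean over nuclei 12 levels, unnamed clusters counted as glutamatergic 10 and all nuclei kept 6, and unthinned shares of nuclei all differed from thinned ones. With likely doublets kept, Mgll in astrocyte-like nuclei was -0.56. Centred on the median gene, glutamatergic-like Faah was 0.02 and Mgll -0.05, and with each cluster weighted alike Mgll was 0.11. No ratio in the 6 classes whose interval left out 0 changed sign under any of these settings. Weighting of clusters, the 25th percentile in naming, removal of barcodes found in both libraries and the median share of neuronal genes were chosen after seeing the data. By Spearman instead of Pearson correlation, 2 of the 3 most alike genes were shared for Abhd6 and Napepld, 1 for Faah and 0 for each of the other 6 members with 500 UMIs. No paired analysis was possible because each condition has 1 library.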
